A study of Homo sapiens with 3 samples.

Results

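Interleukin, interleukin receptor and colony-stimulating factor genes were examined in SKBR3, a human breast cancer cell line that is known for an amplified ERBB2 gene and for lacking oestrogen receptor α. The set comprised every gene whose symbol begins with IL and a digit, together with LIF, CSF1 and CSF3. It held 91 of the 19775 genes with a symbol, read by 163 probe sets. The rule uses gene symbols and no measured value. CSF2 was sought under the same rule and is not analysed here. SKBR3 cells spent 4 h with charcoal-stripped serum, from which most steroids are removed, and were then treated for 3 h. One group received 1 µM estradiol, another 1 µM ERα17p, a synthetic peptide copied from oestrogen receptor α, and the control group 0.1% ethanol. Each group had 1 array, so no difference below has an error or a test, and nothing in it shows how far separate cultures would vary. The labels give an ethanol percentage for the control group only, and name no solvent for ERα17p.

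Interleukins are secreted proteins by which cells instruct one another. Most bind receptors on nearby cells and act through JAK kinases and STAT transcription factors, whereas the IL-1 and IL-17 families act through adaptor proteins on NF-kB and MAP kinases. Receptors of several interleukins share a chain, such as gp130 (IL6ST) for IL-6, IL-11 and LIF, or the common gamma chain (IL2RG) for IL-2, IL-4, IL-7, IL-15 and IL-21. Many interleukin genes are expressed mainly in leukocytes. Epithelial tumour cells are known to make some of them, IL-6 and LIF among these.

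Each deposited value is a distance from that probe set's own baseline, which the authors had subtracted, on a scale taken as log2. They show where an array lay relative to the others, but not how strongly a gene was expressed, so a gene that SKBR3 hardly uses cannot be told from one that it uses. A gene's value is the median over its probe sets, and a difference is that of 2 arrays' gene values. "Higher" and "lower" mean a difference of at least 1.5-fold, which is 0.58 on the log2 scale.

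The vehicle array stood apart from the others. Over all 54675 probe sets the standard deviation was 0.12 with estradiol, 0.13 with ERα17p and 0.27 with vehicle. The 3′ minus 5′ difference of ACTB, which grows as RNA degrades, was 0.02 with estradiol, -0.04 with ERα17p and 0.30 with vehicle. That of GAPDH was 0.01, -0.03 and 0.05, so that the vehicle array stood off in ACTB far more than in GAPDH. Of 9 epithelial and SKBR3 marker genes 1, the transcription factor gene TFAP2B, differed by 1.5-fold between each treated array and vehicle, on which it was lower. Of 9 leukocyte marker genes none differed by 1.5-fold in any comparison. Their values ran from -0.18 to 0.16 with estradiol, from -0.20 to 0.10 with ERα17p and from -0.35 to 0.34 with vehicle. Values of this kind do not show whether a marker was expressed. The part of RNA integrity in the results below was not tested.

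Most of the interleukin and receptor genes lay close together on the 3 arrays, and the few that differed from vehicle by 1.5-fold were all lower in the treated cells. With estradiol 4 of 91 genes, IL20, IL15, IL6 and IL6ST, were lower than with vehicle (4.40%) and 0 were higher. Over all genes 2.93% were lower and 0.809% higher. With ERα17p 3 of 91, the same without IL15, were lower (3.30%), against 2.14% of all genes, and 0 were higher, against 0.582%. These shares are near those of all genes. The median difference of the 91 genes was 0.02 with estradiol and 0.05 with ERα17p, and 0.03 over all genes in both comparisons. Measured from the authors' baseline in place of vehicle, 0 of 91 genes lay 1.5-fold below or above it with estradiol (0.0506% and 0.00506% of all genes) and 0 with ERα17p (0.00506% and 0.0657%). With vehicle 0 lay below and 4 above (0.303% and 2.35%), and the 4 were again IL20, IL15, IL6 and IL6ST. The baseline was not free of these arrays. IL36RN, for example, lay at 0.0553 with estradiol and -0.0553 with vehicle, mirror images around it. Lying near the baseline can thus be partly built in, and these counts are no check free of the vehicle array. Both comparisons share the vehicle array and are not separate evidence. In RNA from whole cultures, fewer cells expressing a gene and less RNA per cell cannot be told apart.

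**Figure D1:**
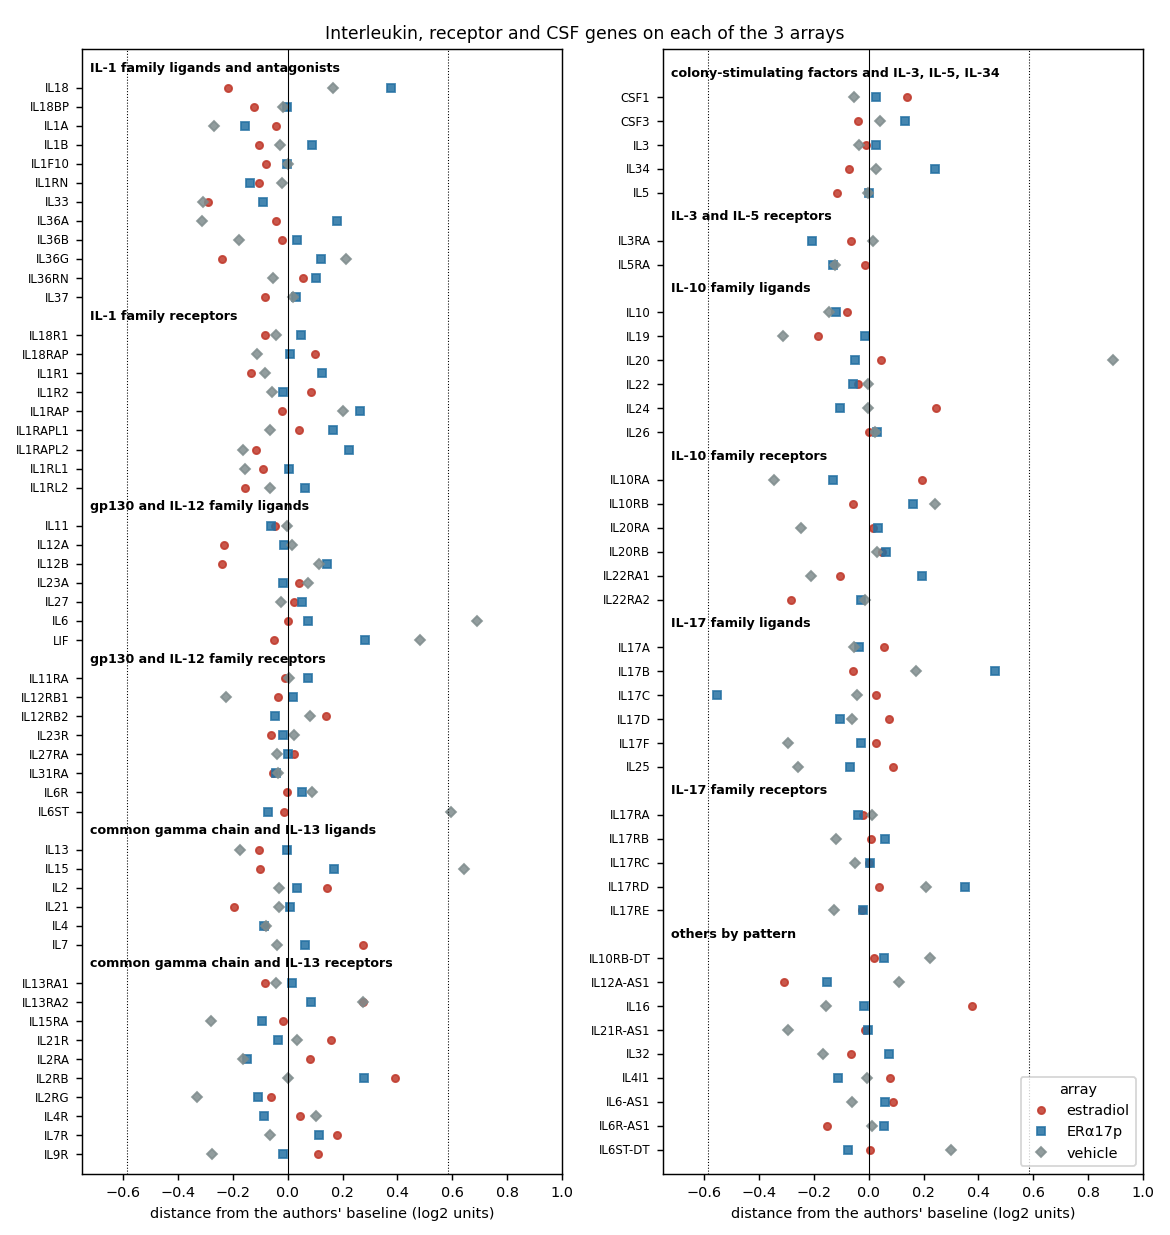
Distance from the authors' baseline in log2 units (horizontal axis) of the 91 genes on the estradiol array (circles), the ERα17p array (squares) and the vehicle array (diamonds), grouped by role. Dotted lines mark 1.5-fold, and only IL20, IL15, IL6 and IL6ST pass it, all on the vehicle array.

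The proximal promoters of the 3 genes that were lower with both treatments are given for the letters of binding motifs in them. They are RefSeq sequences of build GRCh38.p14, 250 bases up to the start site and 5′ to 3′ on the gene's strand, at chr7:22726950-22727199 (plus strand) for IL6, chr1:206863315-206863564 (plus strand, the first of the listed starts) for IL20 and chr5:55994964-55995213 (minus strand) for IL6ST. Capitals mark a match to an NF-kB type motif, GGG and TTCC with any 3 letters between them.
IL6: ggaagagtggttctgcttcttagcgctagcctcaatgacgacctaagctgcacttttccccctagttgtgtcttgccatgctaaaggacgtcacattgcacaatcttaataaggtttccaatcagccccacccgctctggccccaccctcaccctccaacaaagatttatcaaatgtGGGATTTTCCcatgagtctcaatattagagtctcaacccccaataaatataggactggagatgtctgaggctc
IL20: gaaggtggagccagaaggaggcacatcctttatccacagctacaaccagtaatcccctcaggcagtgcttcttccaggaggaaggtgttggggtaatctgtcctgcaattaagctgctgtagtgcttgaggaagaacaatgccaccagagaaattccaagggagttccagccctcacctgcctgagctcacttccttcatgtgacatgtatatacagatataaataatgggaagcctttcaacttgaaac
IL6ST: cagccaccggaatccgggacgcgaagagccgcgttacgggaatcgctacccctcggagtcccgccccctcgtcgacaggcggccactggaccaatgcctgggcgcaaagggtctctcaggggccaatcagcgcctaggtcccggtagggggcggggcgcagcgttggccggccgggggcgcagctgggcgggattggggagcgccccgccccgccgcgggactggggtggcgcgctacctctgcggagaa
IL6 carried 1 match, GGGATTTTCC, from 73 to 64 bases before its start, which also matched a stricter form in which the letter before TTCC is T. The windows of IL20 and IL6ST held no match to either form. No window of the 3 genes matched TGANTCA, an AP-1 type motif, or TGACGTCA, a cAMP response element type motif. Both strands were searched, and matches to the stricter form are also matches to the wider one. Promoters were listed for 73 of the 91 genes, in 114 windows, some of which belong to the same gene. IL15, LIF and IL18 are among the genes without one. The wider NF-kB type motif was in 7.02% of these windows and in 5.67% of all 35116 promoters, and TGANTCA in 14.9% and 6.57%. IL1A, which encodes IL-1α, had 3 matches to TGANTCA. These matches are letters, not evidence of binding.

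Ligands that signal through gp130 were led by IL6, a cytokine of inflammation and the acute phase. IL6 lay at 0.00 with estradiol and 0.07 with ERα17p, against 0.69 with vehicle. Both treated arrays thus lay near the baseline and vehicle above it. The differences were -0.69 with estradiol (1.61-fold lower) and -0.62 with ERα17p (1.53-fold lower), from 1 probe set. LIF, which encodes leukaemia inhibitory factor, lay at -0.05 with estradiol and 0.28 with ERα17p, against 0.48 with vehicle. Its difference of -0.53 with estradiol fell just short of the threshold, and that with ERα17p was -0.20. IL11, an epithelial and stromal relative that uses the same chain, lay between -0.06 and 0.00 on all 3 arrays. IL6-AS1, an antisense gene to IL6, differed from vehicle by 0.15 with estradiol and 0.12 with ERα17p, opposite in sign to IL6. Among IL-12 family ligands, IL12B, a subunit shared by IL-12 and IL-23, differed by -0.35 with estradiol and 0.03 with ERα17p, and IL12A, the other subunit of IL-12, by -0.25 and -0.03.

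The signal-transducing receptor chain gp130, encoded by IL6ST, was also lower. Its gene value was -0.01 with estradiol and -0.07 with ERα17p, against 0.60 with vehicle. The differences were -0.61 (1.53-fold lower) and -0.67 (1.59-fold lower). Its 7 probe sets did not move alike. With estradiol 204863_s_at, 212195_at, 212196_at and 211000_s_at differed by -0.86, -0.64, -0.62 and -0.56, while 234967_at, 234474_x_at and 204864_s_at differed by -0.08, 0.14 and 0.44. The first 4 probe sets lay between 0.60 and 0.73 on the vehicle array and the other 3 between -0.05 and 0.03. With ERα17p the same 4 differed by -0.80, -0.49, -0.59 and -0.83, and the other 3 by 0.13, -0.14 and -0.03. The place of IL6ST past the threshold depended on how its probe sets were summarised. With the median over the probe sets' own differences it was -0.56 with estradiol and -0.49 with ERα17p, and with the mean over probe sets -0.31 and -0.39.

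Genes next to IL6ST, and the other receptor genes of the gp130 and IL-12 families, moved less in their gene values. IL6ST-DT, a divergent transcript listed beside it, lay at 0.00 with estradiol and -0.07 with ERα17p, against 0.30 with vehicle, so that its differences were -0.30 and -0.37. IL31RA, a neighbouring receptor gene of the same family, had -0.02 and -0.01. IL6R, the ligand-binding receptor gene for IL-6, differed by -0.09 with estradiol and -0.04 with ERα17p in its gene value. One of its 3 probe sets, 205945_at, lay at 0.00 with estradiol and 0.13 with ERα17p, against 0.49 with vehicle, which gives differences of -0.49 and -0.36. The other 2 had 0.00 and -0.13 with estradiol and -0.15 and -0.02 with ERα17p. IL11RA, the receptor gene for IL-11, differed by -0.01 and 0.07. IL12RB1, a receptor subunit for IL-12 and IL-23, had 0.19 and 0.24 in its gene value, but its 3 probe sets did not share a sign. They differed by -0.02, 0.32 and -0.08 with estradiol and by 0.03, -0.03 and 0.29 with ERα17p. Of the 8 receptor genes of the gp130 and IL-12 families, 1 was lower in each comparison with vehicle and 0 higher, with medians of -0.01 and -0.02.

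IL20, a cytokine of the IL-10 family that acts on epithelial cells, had the largest difference among the 91 genes in both comparisons with vehicle. It lay at 0.04 with estradiol and -0.05 with ERα17p, against 0.89 with vehicle. The differences were -0.85 (1.80-fold lower) and -0.94 (1.92-fold lower), from 1 probe set. Its neighbours on chromosome 1, IL10, IL19 and IL24, did not follow it. IL10, an anti-inflammatory cytokine, differed by 0.06 with estradiol and 0.03 with ERα17p, IL19 by 0.13 and 0.30, and IL24 by 0.25 and -0.10. None of the 6 receptor genes of the family was lower or higher by 1.5-fold. IL20RA, one chain of the IL-20 receptor, had 0.26 with estradiol and 0.28 with ERα17p, and IL20RB, the other chain, 0.02 and 0.04. IL22RA1, another receptor gene of the family, had 0.10 with estradiol and 0.40 with ERα17p. IL10RB, a chain shared by several receptors of the family, differed by -0.30 and -0.08, and IL22RA2, a soluble IL-22 binding protein, by -0.27 and -0.01. IL10RA, the IL-10 receptor chain of leukocytes, lay at 0.19 with estradiol and -0.13 with ERα17p, against -0.35 with vehicle. Its difference of 0.54 with estradiol was the highest of all 91 genes and fell short of 1.5-fold.

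IL15 stood out among the ligands of the common gamma chain, with which IL13 was grouped. It encodes a cytokine that sustains natural killer and memory T cells. IL15 lay at -0.10 with estradiol and 0.17 with ERα17p, against 0.64 with vehicle. It was lower with estradiol by -0.74 (1.67-fold), and both of its probe sets agreed, each at -0.74. With ERα17p the difference was -0.47, and the probe sets had -0.41 and -0.54, short of the threshold. Both probe sets are of the kind that can take up several transcripts. IL7, a lymphocyte growth factor, differed by 0.32 with estradiol and 0.10 with ERα17p, and IL2, IL4, IL13 and IL21 lay between -0.16 and 0.18 in both comparisons.

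None of the 10 receptor genes of the common gamma chain and IL-13 group was higher or lower by 1.5-fold. Of the 10, 7 had a difference from vehicle above 0 with estradiol and 7 with ERα17p, against 11091 and 11462 of all 19775 genes. The medians were 0.25 with estradiol and 0.12 with ERα17p, against 0.03 over all genes. IL2RB, a subunit shared by the receptors of IL-2 and IL-15, lay at 0.39 with estradiol and 0.28 with ERα17p, against 0.00 with vehicle. The common chain gene IL2RG lay at -0.06 and -0.11, against -0.33 with vehicle, and IL15RA, which presents IL-15, at -0.02 and -0.09, against -0.28. IL9R, the IL-9 receptor gene, differed from vehicle by 0.39 with estradiol in its gene value, while its 3 probe sets differed by 0.22, 0.42 and 0.71. IL4R, which is expressed in many epithelia, differed by -0.06 with estradiol and -0.19 with ERα17p.

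**Figure D2:**
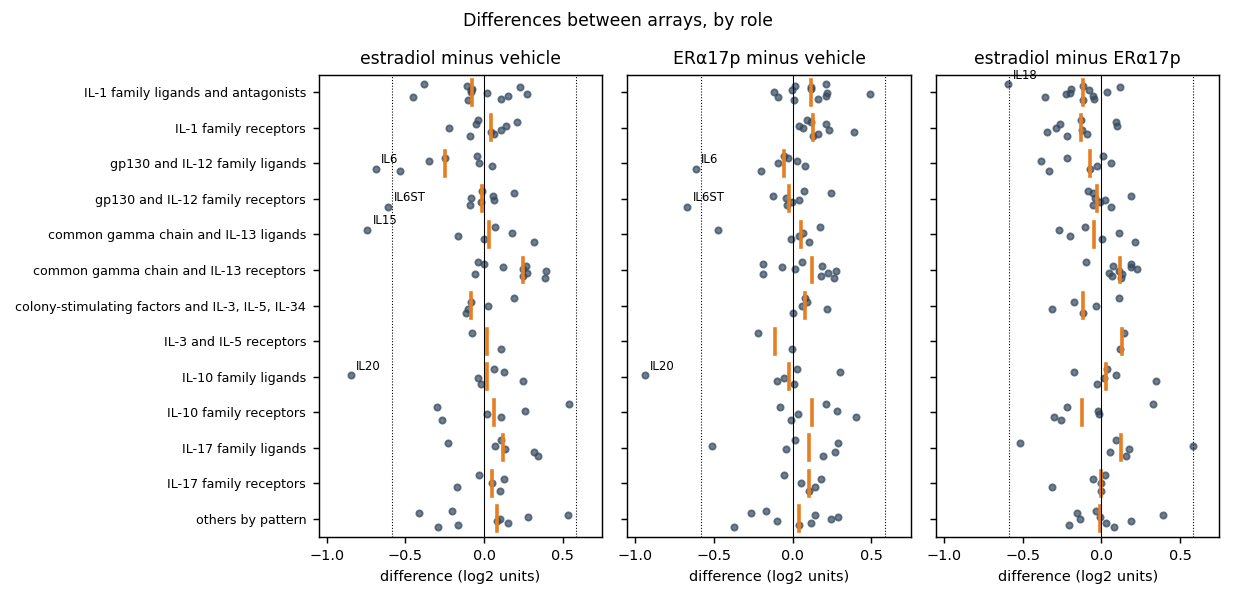
Differences between arrays in log2 units (horizontal axis) for the 91 genes by role, 1 point a gene, with a bar at each role's median. Dotted lines mark 1.5-fold. IL20, IL15, IL6 and IL6ST pass it with estradiol against vehicle, IL20, IL6 and IL6ST with ERα17p against vehicle, and IL18 with estradiol against ERα17p.

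The IL-1 family, whose ligands start inflammatory cascades, held no gene that passed the threshold against vehicle. IL1A and IL1B encode its founding members. IL1A lay at -0.04 with estradiol and -0.16 with ERα17p, against -0.27 with vehicle, and IL1B at -0.10 and 0.09, against -0.03. The gene value of IL1A thus lay lowest with vehicle, and IL1B on vehicle lay between the treated arrays. The probe sets of IL1A were split. On 208200_at ERα17p was lowest, at -0.40 against -0.34 with vehicle, and on 210118_s_at vehicle was lowest, at -0.20. Of 12 ligands and antagonists 7 had a difference from vehicle below 0 with estradiol (median -0.08) and 3 with ERα17p (median 0.12), against 8658 and 8287 of all 19775 genes. IL36G and IL36A, epithelial relatives of IL-1, went apart. IL36G differed by -0.45 with estradiol and -0.09 with ERα17p, and IL36A by 0.27 and 0.49. IL33, an alarmin of epithelial cells, had 0.02 and 0.22, and the receptor antagonist gene IL1RN -0.08 and -0.12. In gene values, all 9 receptor genes of the family had a difference from vehicle above 0 with ERα17p, as had 11462 of all 19775 genes. The 9 ran from 0.04 for the decoy receptor IL1R2 to 0.39 for IL1RAPL2, with a median of 0.13. With estradiol 5 of the 9 had a difference above 0, with a median of 0.04. With ERα17p IL1R2, IL1RAP and IL1RL1 each had 1 probe set below 0, at -0.05, -0.02 and -0.04. Their other probe sets were above 0.

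IL-17 family ligands and receptors included no gene past 1.5-fold against vehicle. IL17C, an epithelial cytokine of host defence, lay at 0.03 with estradiol and -0.55 with ERα17p, against -0.04 with vehicle, so that the ERα17p array was the one apart. IL17B lay at -0.06 with estradiol and 0.46 with ERα17p, against 0.17 with vehicle. The genes IL17A and IL17F, of the cytokines typical of helper T cells, differed by 0.11 and 0.32 with estradiol and by 0.02 and 0.27 with ERα17p. IL17RB, a receptor chain studied in breast cancer, had 0.13 with estradiol and 0.18 with ERα17p. IL17RA, the chain shared by most receptors of the family, had gene values of -0.02 and -0.04, against 0.01 with vehicle. One of its 4 probe sets, 229295_at, lay at -0.10 with estradiol and -0.06 with ERα17p, against 0.59 with vehicle.

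Colony-stimulating factors drive the growth of myeloid cells. CSF1, the macrophage factor, had the widest spread between probe sets among the 91 genes in both comparisons with vehicle. In the direct comparison of estradiol with ERα17p that of IL9R was wider, from -0.26 to 0.57, against -0.17 to 0.40 for CSF1. The gene value of CSF1 was 0.14 with estradiol and 0.02 with ERα17p, against -0.05 with vehicle. Probe set 209716_at lay at -0.08 and 0.10, against 0.85 with vehicle, whereas 211839_s_at lay at 0.24 and -0.16, against -0.45. The same gene therefore had differences of -0.92 and 0.69 with estradiol, and of -0.75 and 0.29 with ERα17p, on these probe sets. CSF3, the granulocyte factor, differed by -0.08 with estradiol and 0.09 with ERα17p, and IL34, a second ligand of the CSF-1 receptor, by -0.10 and 0.22. IL3 and IL5, which act on blood cell precursors and eosinophils, had differences between -0.11 and 0.06. Their receptor genes IL3RA and IL5RA had -0.08 and 0.11 with estradiol and -0.22 and -0.01 with ERα17p.

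**Figure D3:**
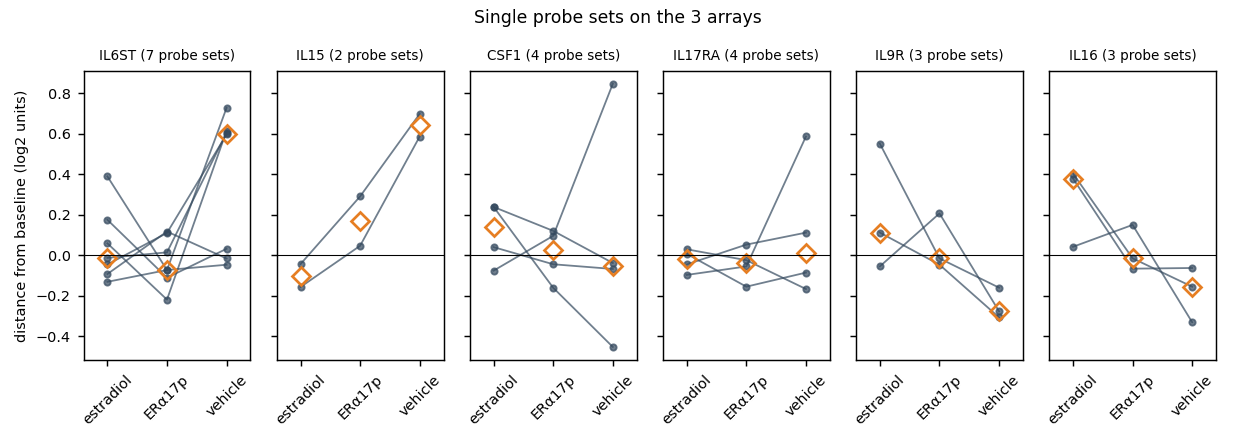
Distance from baseline in log2 units (vertical axis) of single probe sets on the estradiol, ERα17p and vehicle arrays, for 6 genes. Lines join the values of 1 probe set, and open diamonds mark the gene value. The probe sets of IL15 run together, whereas those of IL6ST and CSF1 diverge on the vehicle array.

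Counted by probe set, 9 of 163 were lower with estradiol (5.52%), against 3.71% of all probe sets with 1 symbol, and 7 with ERα17p (4.29%, against 2.76%). The 9 belonged to IL20, IL15, IL6, IL6ST, CSF1 and IL17RA. Those higher with estradiol were 2, of IL9R and CSF1 (1.23%, against 1.38%), and with ERα17p 0 (against 0.886%). With estradiol against ERα17p 1 was lower (0.613%, against 0.29%) and 0 higher (against 0.314%). Among the 40 genes with several probe sets, all probe sets had the same sign in 21 with estradiol, 18 with ERα17p and 13 in the direct comparison. The first is 52.5% and the last 32.5%, against 46.3% and 38.5% of all such genes, and with ERα17p 45.9% of all such genes had 1 sign.

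Estradiol and ERα17p were then compared directly at the same dose and time, without the vehicle array. One gene of 91 was lower (1.10%, against 0.207% of all genes) and 0 were higher (against 0.147%), with a median of -0.03, and -0.01 over all genes. It was IL18, an IL-1 relative made constitutively by epithelia, at -0.22 with estradiol against 0.38 with ERα17p. Its difference was -0.60, or 1.51-fold, from 1 probe set, and vehicle lay between them at 0.16. IL17C fell just short on the other side, by 0.58 (1.49-fold), and IL17B had -0.52. IL16, a T cell attractant, lay at 0.38 with estradiol against -0.02 with ERα17p, a difference of 0.39. Its 3 probe sets gave 0.44, 0.42 and -0.11. Against vehicle IL16 differed by 0.53 with estradiol and 0.14 with ERα17p, short of the threshold. Of the genes that were low against vehicle, IL20 differed by 0.09 between the treatments, IL6 by -0.07, IL6ST by 0.06 and IL15 by -0.27. With 1 array each these values have no interval, so they do not show that the agents acted alike on them.

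Genes that work with these receptors were read against the same shares of all genes, 2.93% lower with estradiol and 2.14% with ERα17p. Of 16 measured partner receptors and ligands 1 was lower with estradiol and 0 with ERα17p. It was CSF2RB, the shared receptor chain for IL-3, IL-5 and GM-CSF, at 0.00 with estradiol and 0.22 with ERα17p, against 0.62 with vehicle. Among 9 measured JAK and STAT genes STAT5A, a transcription factor activated by many cytokine receptors, was lower in both comparisons. It lay at -0.10 with estradiol and 0.02 with ERα17p, against 1.05 with vehicle, on 1 probe set. Its near relative STAT5B differed by -0.05 and 0.07, and STAT3, the main effector of gp130, by 0.04 and 0.04. None of 11 adaptors and kinases of IL-1 and IL-17 receptors passed, although TRAF6, a ubiquitin ligase of that pathway, had -0.42 with estradiol and -0.39 with ERα17p. None of 9 genes for the inflammasome and its caspases passed, with a range from -0.10 to 0.31 over both comparisons.

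CXCL8, whose older name is interleukin-8 and which the naming rule does not reach, was of another size. It lay at -0.31 with estradiol and 1.65 with ERα17p, against 6.93 with vehicle. Its differences were -7.24 and -5.28. It was singled out after its values were seen.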

How the data were processed

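RMA is the tool that the submitters' processing notes name. It corrects background, normalises by quantiles and summarises probes on a log scale. The deposited values were taken as log2, as RMA yields, although its base and the version of RMA are not given in the sources used. They were not RMA levels: array medians lay near 0, and 7.28% of probe sets (11 of the 163 studied) held exact mirror images around 0 on a pair of arrays, to a tolerance of 1e-06. Centring of each probe set on a median over more arrays than these would give such pairs, and was assumed. No filter on dim probe sets was possible, and signal over background is unknown. The precision is limited by the number of arrays.

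The platform annotation gave gene symbols, with Entrez IDs checked against assembly GRCh38.p14. Of 54675 probe sets 41091 had 1 symbol, 1801 had several and were left out, and controls were not used. All 91 genes studied matched by Entrez ID. Differences and counts were computed with Python 3.11.15, numpy 2.4.6 and pandas 2.3.3, over all genes, and the size rule was tested on simulated data. No test was possible from single arrays. Genes were named if they passed 1.5-fold, had 1 of the 5 largest differences of a comparison, or were among the 4 with the largest differences of their role or pathway list. Not every gene of the last kind was named. A few others were named after their values were seen, to complete a family. The genes and lists were chosen with earlier results of these data known. Alternatives were the mean over probe sets, leaving out probe sets whose ID ends in _s_at or _x_at, which may detect several transcripts, array medians subtracted, the baseline in place of vehicle, and a 2-fold threshold. The median of probe set differences was added after seeing the data.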

Additional observations from a re-analysis of the deposited data

How the results depend on the processing

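No paired analysis was possible because each group had 1 array. Every comparison with vehicle rests on the vehicle array. The authors' baseline is not independent of that array, since mirror images around 0 included it. With this baseline in place of vehicle, 0 members were lower with estradiol and 0 with ERα17p. Of the genes past 1.5-fold, IL20 with estradiol changed sign to 0.045, and IL6 did so to 0.00099 with estradiol and 0.074 with ERα17p. Genes short of it also changed sign, and not all of them are listed here. Examples are IL15 with ERα17p (0.17), IL10RA and IL16 with ERα17p (-0.13 and -0.02) and IL36A with estradiol (-0.04). LIF with ERα17p (0.28) and IL2RG with estradiol and ERα17p (-0.06 and -0.11) are further ones. The members' median with estradiol changed sign to -0.02. The cause was not tested. With a 2-fold threshold 0 members were lower in any of the 3 comparisons, as the stricter rule allows. Without probe sets whose ID ends in _s_at or _x_at, 82 of the 91 genes were left, IL15 was not among them, and 1 gene, IL9R, was higher with estradiol, on its 1 remaining probe set. IL6ST was no longer lower with ERα17p there, at -0.49. IL6ST also lost its place in both comparisons with the mean over probe sets and with the median of probe set differences. IL20 and IL6 were lower in both comparisons, and IL18 in the direct one, under every alternative at 1.5-fold that kept the vehicle array. Each of these genes has 1 probe set, whose ID ends in neither _s_at nor _x_at. Of those alternatives only subtracting array medians could change their values, so the others are no check on them.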

Other observations

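Probe sets that name a member beside another gene were left out above. One listed for IL4I1 and NUP62 lay at -0.15 with estradiol and -0.14 with ERα17p, against -0.02 with vehicle. IL4I1, an enzyme gene named for its induction by IL-4, lay on its own probe set at 0.08 and -0.11, against -0.01 with vehicle.

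Many interleukin genes stand side by side on chromosomes. The 9 genes of the IL-1 cluster on chromosome 2, from IL1A to IL1RN, ran from -0.45 to 0.27 with estradiol against vehicle and from -0.12 to 0.49 with ERα17p. The 6 genes of the IL-1 receptor cluster on the same chromosome, from IL1R2 to IL18RAP, ran from -0.09 to 0.21 and from 0.04 to 0.21. On chromosome 5 the genes IL3, IL5, IL13 and IL4, a cluster active in helper T cells, ran from -0.11 to 0.07 and from -0.01 to 0.17. Neighbours were taken as genes of the set no more than 1000000 bases apart. Of genes with an older interleukin name, CXCR1 and CXCR2, receptors for CXCL8, differed by 0.45 and -0.38 with estradiol and by 0.36 and -0.39 with ERα17p. The lambda interferon genes IFNL1 and IFNL2, once IL29 and IL28A, had -0.19 and -0.28 with estradiol and -0.24 and -0.20 with ERα17p.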
